A study of Mus musculus with 6 samples.

Results

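The meiosis and piRNA pathway genes described here are 42 named mouse genes that act in the germ line. They were taken by name and not by a cut on their values, but with earlier results of these arrays known. A gene was measured where a probe's transcript identifier mapped to its symbol, which held for 41 of the 42. No probe was matched to Piwil4, which encodes a PIWI protein of fetal male germ cells. Of the 41, 34 were among the 19670 genes tested. Gene expression had been measured on 6 one-colour arrays, 1 per sample, each from 100 ng of total RNA, in a study titled for the energy metabolism of primordial germ cells. The ESC group is 3 samples of a male line of embryonic stem cells called VR15. It carries a Vasa::RFP transgene, and Vasa is the germ cell gene whose mouse symbol is Ddx4. The soma group is 3 samples of somatic cells from male gonads at E13.5, from a cross of MCH with C57BL6/J mice that bears a GFP transgene given as Oct5<delta>PE-GFP. All 6 samples thus come from transgenic animals or cells, ESC is a single line, and the labels do not say how germ cells were removed from the soma samples or whether animals were pooled. The design text calls the 3 samples per cell type biological replicates, and the p-values hold only as far as that does.

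piRNAs are small RNAs that PIWI proteins carry in germ cells, where they silence transposons. Their precursors are exported, unwound and cut at the surface of mitochondria and in cytoplasmic granules, in which Tudor domain proteins bind the PIWI proteins. In meiosis, cohesin with meiotic subunits holds sister chromatids, protein axes form along the chromosomes, the synaptonemal complex joins the homologues, and programmed DNA breaks are repaired from the homologue. In the fetal mouse gonad female germ cells enter meiosis around the stage sampled here, whereas male germ cells stop dividing and build up the piRNA pathway. Gonadal somatic cells use neither programme, and many of these genes are known to be methylated at their promoters in somatic tissues.

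Levels are given as relative signal, which is the probe's processed signal as a percentage of the 75th percentile of its array, so that 100% is a fairly bright probe. Levels of different genes come from different probes and are not compared. That percentile was 1016, 975.02 and 959 on ESC 1 to 3 and 1337, 1388 and 1245 on soma 1 to 3. The scanner software called 56.0% to 63.2% of gene probes well above background on each array, and none of the gene spots was saturated. Over the genes tested, Pearson's r across genes was 0.994 to 0.995 between arrays of 1 group and 0.786 to 0.7996 between arrays of different groups. Soma 1 and 2 were scanned together on 1 slide, soma 3 was on the slide of the ESC arrays with a scan of its own, and each scan held 1 group, so that scan cannot be told apart from group. The labelled cell types were checked against marker lists. Of 14 pluripotency markers, 13 were higher in ESC, led by Fgf4, Zfp42 and Tfcp2l1, and Nanog was lower. All 14 Sertoli markers, led by Cst9, Defb19 and Inha, the 5 measured fetal Leydig markers, led by Hsd3b1, Cyp11a1 and Star, and the 8 interstitial markers, among them Nr2f2 and Tcf21, were higher in soma. Blood and vessel genes were in the soma samples too: 6 erythroid markers (Hbb-y, Hba-a1 and Hba-x leading), 6 macrophage markers (Cx3cr1, C1qc and Adgre1 leading) and 3 endothelial markers (Cdh5, Emcn and Cd34) were higher in soma, while Pecam1 and Tek were higher in ESC.

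Most of the meiotic genes that could be tested were higher in the stem cells. The 5 members higher in soma were the germ cell regulators Dazl and Nanos2, the Tudor gene Tdrd7 and the recombination genes Msh5 and Tex15. Differences are log2, ESC minus soma, with the SE of a limma fit (n = 3 arrays per group throughout) and p-values adjusted by Benjamini-Hochberg over all genes, and a gene was called at an adjusted p under 0.05. Of the 34 members tested, 22 were higher in ESC, 5 in soma, and 7 did not pass. The background is wide: 84.9% of all genes tested were called, 46.6% as higher in ESC and 38.3% as higher in soma. At 2-fold or more, 21 members were higher in ESC, where 24.2% of all genes were, and 4 were higher in soma, where 23.2% of all genes were. Only genes detected throughout at least 1 group were tested, so counts over the tested members say little about the 42. Among the 26 members detected, in the sense of well above background, on each of the 6 arrays, 15 were higher in ESC, 4 in soma, and 7 did not pass. Of 16072 genes under the same filter, 83.9% were called, 49.1% as higher in ESC and 34.8% as higher in soma. Of those 26, 14 were at least 2-fold higher in ESC and 3 at least 2-fold higher in soma, against 22.2% and 17.5%. Their median difference was 1.24, against 0.21 over the 16072 genes. The groups did not overlap for 28 of the 34 tested members, where 87.2% of all genes did not overlap, and for 20 of the 26, where 86.5% of the 16072 genes did not, so that neither count exceeded the background.

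**Figure D1:**
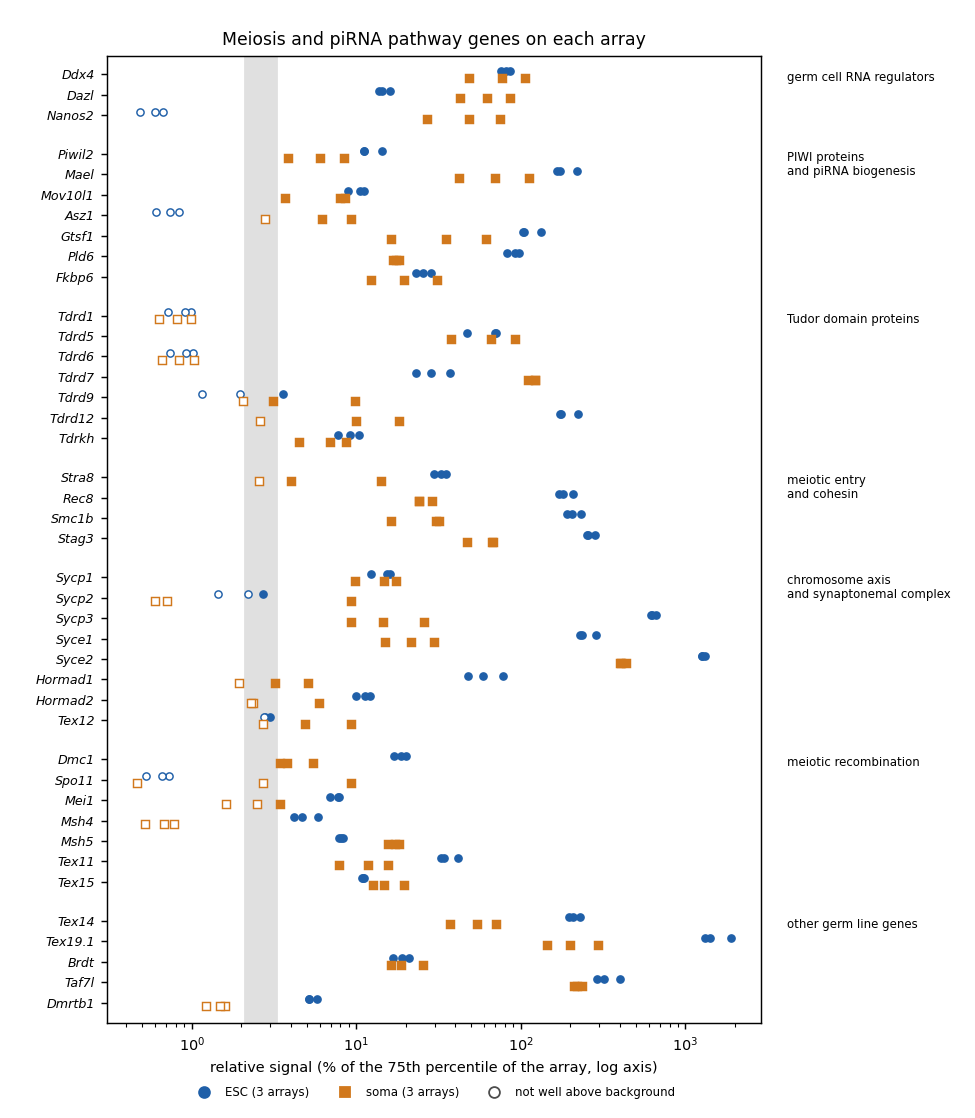
Relative signal of the 41 measured genes on each array, as a percentage of the array's 75th percentile on a log axis, grouped by role. Blue circles are the 3 ESC arrays, orange squares the 3 soma arrays, open symbols values not well above background, and the grey band spans the lowest well-above-background signals of the 6 arrays, 2.12% to 3.28%. The soma squares of many genes lie far apart while their ESC circles lie close together.

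Of the 34 members tested, 33 were well above background on all 3 ESC arrays and 27 on all 3 soma arrays. Of the 19670 genes tested, 17487 and 18255 were. The measured members left out of the test were not detected throughout either group. Msh4 and Dmrtb1 were well above background on every ESC array and on no soma array, whereas Nanos2 was so on each soma array and on no ESC array. Tdrd12, Stra8 and Hormad1 were detected on all ESC arrays but on only 2 soma arrays, soma 2 and 3, and Hormad2 and Mei1 on soma 3 alone. Tdrd1 and Tdrd6 stayed at background on all 6. Under the software's looser mark of a significant positive signal, 36 of the 41 measured members were detected on all ESC arrays and 36 on all soma arrays.

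**Figure D2:**
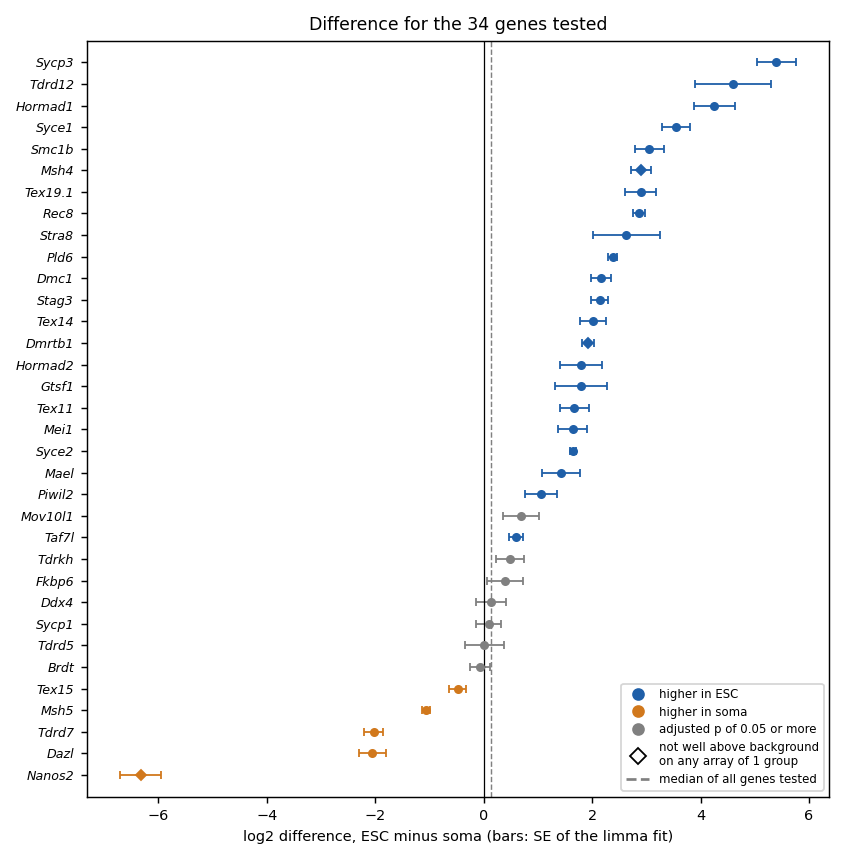
The log2 difference of the 34 tested genes, ESC minus soma, with the SE of the limma fit as bars (n = 3 arrays per group). Blue points are higher in ESC, orange points higher in soma, grey points did not pass, and diamonds mark genes at background throughout 1 group, whose fold is only a bound. Sycp3 lies at 5.40 and Nanos2 at -6.32, and the dashed line is the median of all genes, 0.14.

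The 3 germ cell RNA regulators were the only group of the list with no gene higher in ESC. Nanos2, an RNA-binding protein that keeps fetal male germ cells out of meiosis, had 0.665%, 0.485% and 0.593% on ESC 1 to 3, none of them well above background, against 26.9%, 48.6% and 75.01% on soma 1 to 3. Every soma array lay far above every ESC array. The Nanos2 signal was at least 16.2-fold higher in soma (adjusted p = 1.35e-05), where the bound sets the soma mean against the lowest signals that count as well above background on the ESC arrays. Here and wherever a bound is given, the p-value is that of the measured log2 difference in the limma fit and does not test the bound. Dazl, an RNA-binding protein that licenses germ cells for gamete development, had 16.1%, 13.7% and 14.3% on the ESC arrays, against 42.7%, 62.2% and 85.6% on the soma arrays. The groups did not overlap, and Dazl was 4.16-fold higher in soma (-2.06 ± 0.25, adjusted p = 0.000389). Ddx4, the Vasa RNA helicase of germ cell granules, had 85.3%, 75.4% and 81.0% in ESC and 48.5%, 76.9% and 106% in soma. The 3 ESC arrays lay inside the soma range, and Ddx4 did not pass (0.13 ± 0.28, adjusted p = 0.671). Against soma 3 alone, the soma array on the slide of the ESC arrays, the Ddx4 difference was -0.40. With 1 soma array such a difference is given as a value with no test, here and for the genes that follow. The labels do not say which Vasa sequence the reporter of the ESC line carries, so whether its RNA reaches the Ddx4 probe was not tested. In bulk samples such as these, fewer cells of a type and less RNA per cell cannot be told apart, and that holds for each soma value given here.

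The promoters of both regulators that were higher in soma are shown as those of the 2 largest differences in soma. The Dazl window is CpG-rich, with 0.795 of the CpG dinucleotides its base composition predicts, and the Nanos2 window has none. Each sequence is the 250 bases before the annotated start, 5′ to 3′ in the direction of the gene, from RefSeq on GRCm38.p6, with Nanos2 at chr7:18987274-18987523 on the plus strand and Dazl at chr17:50293621-50293870 on the minus strand. Here and below, capitals would mark an E-box or an E2F motif, and these sequences have neither.
Nanos2: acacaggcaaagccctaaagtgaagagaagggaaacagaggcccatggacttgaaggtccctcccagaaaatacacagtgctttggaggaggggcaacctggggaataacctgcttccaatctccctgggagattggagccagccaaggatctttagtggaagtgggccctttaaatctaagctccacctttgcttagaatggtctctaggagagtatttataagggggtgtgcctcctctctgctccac
Dazl: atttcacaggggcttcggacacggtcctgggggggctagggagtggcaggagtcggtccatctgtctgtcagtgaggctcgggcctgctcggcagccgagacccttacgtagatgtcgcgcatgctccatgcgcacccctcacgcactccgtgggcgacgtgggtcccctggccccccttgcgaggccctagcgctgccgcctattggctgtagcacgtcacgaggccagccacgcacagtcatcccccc

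Of the 7 measured genes for PIWI proteins and piRNA biogenesis, 4 were higher in ESC, beside 46.6% of all genes tested. Of the rest, 2 did not pass and Asz1 was not tested. Pld6, the mitochondrial endonuclease that cuts piRNA precursors, had 92.6%, 82.8% and 97.3% in ESC, against 16.7%, 17.5% and 18.2% in soma. The arrays of each group lay close together and Pld6 was 5.197-fold higher in ESC (2.38 ± 0.08, adjusted p = 1.31e-06). Gtsf1, a zinc finger partner of PIWI proteins, had 132%, 105% and 103% in ESC, against 16.2%, 34.8% and 61.4% in soma. Its groups did not overlap, but the soma arrays differed 3.80-fold among themselves, and the difference was 1.79 ± 0.48 (adjusted p = 0.0132). Mael, a component of germ cell granules needed for transposon silencing, had 219%, 166% and 172% in ESC and 42.2%, 69.1% and 112% in soma, a difference of 1.42 ± 0.36 (adjusted p = 0.0102). Piwil2, the PIWI protein also called MILI, had 14.2%, 11.1% and 11.05% in ESC and 3.81%, 6.05% and 8.35% in soma, a difference of 1.06 ± 0.29 (adjusted p = 0.0155). For Mael and Piwil2 the highest soma array came close to the lowest ESC array. With the slide as a fixed block, soma 3 is the only soma array set against the ESC arrays, since it alone shares their slide. The differences then shrank to 0.87 for Gtsf1, 0.72 for Mael and 0.53 for Piwil2. With 1 soma array on the shared slide, these are given as values only. They cannot decide whether the 3 differences hold there. Piwil2 did not pass without ESC 1 (adjusted p = 0.055).

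Mov10l1, the RNA helicase that feeds precursors into the pathway, had 10.4%, 8.85% and 11.2% in ESC and 3.66%, 7.95% and 8.505% in soma. The groups did not overlap, by a narrow margin, and the difference of 0.69 ± 0.34 did not pass (adjusted p = 0.103). It passed under quantile normalization (adjusted p = 0.0497), with array medians as the scale (adjusted p = 0.0365) and normexp background correction (adjusted p = 0.0174). Fkbp6, a co-chaperone of the pathway, had 28.6%, 25.5% and 23.0% in ESC and 12.3%, 19.4% and 31.0% in soma, and the groups overlapped (0.39 ± 0.33, adjusted p = 0.305). Without soma 3 the Fkbp6 difference was 0.73 and passed (adjusted p = 0.0317), and against soma 3 alone, on the shared slide, it was -0.28. Asz1, a mitochondrial scaffold of the pathway, was not well above background on any ESC array, at 0.839%, 0.602% and 0.737%, and had 2.79%, 6.21% and 9.32% in soma, where soma 2 and 3 were well above background. It was left out of the test, since neither group was detected throughout.

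The Tudor domain genes went both ways. Tdrd12, which is needed for piRNAs of the second, nuclear PIWI protein of fetal germ cells, had 221%, 174% and 174% in ESC, against 2.58%, 9.998% and 18.03% in soma. Soma 1 was not well above background and soma 2 and 3 were, and the ESC arrays lay far above all of them (24.3-fold, 4.603 ± 0.70, adjusted p = 0.00109). Against soma 3 alone, on the shared slide, the Tdrd12 difference was 3.38. Tdrd7, a granule protein also known from the lens of the eye, had 22.9%, 37.0% and 28.3% in ESC, against 110%, 122% and 122% in soma. It was 4.08-fold higher in soma (-2.03 ± 0.18, adjusted p = 7.73e-05), with soma arrays within 1.11-fold of each other.

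The Tdrd12 promoter is shown as that of the second largest difference in ESC. The 250 bases before the first annotated start lie at chr7:35537716-35537965 on the minus strand, and they hold no E-box and no E2F motif.
Tdrd12: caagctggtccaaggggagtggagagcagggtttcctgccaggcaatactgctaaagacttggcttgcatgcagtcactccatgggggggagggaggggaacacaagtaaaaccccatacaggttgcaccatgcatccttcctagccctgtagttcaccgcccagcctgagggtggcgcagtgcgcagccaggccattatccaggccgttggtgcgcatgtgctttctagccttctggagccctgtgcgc

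Tdrd5, a protein of germ cell granules, had 47.2%, 69.1% and 71.0% in ESC and 37.5%, 65.7% and 92.0% in soma, with a difference of 0.01 ± 0.36 (adjusted p = 0.98). Its other probe gave -0.10 and did not pass either. Tdrkh, a mitochondrial partner of PIWI proteins that takes part in trimming piRNAs, had 7.69%, 10.4% and 9.11% in ESC and 4.49%, 6.91% and 8.62% in soma, with overlap (0.48 ± 0.26, adjusted p = 0.126). The Tdrkh difference passed without soma 3 (0.69, adjusted p = 0.041), under quantile normalization (0.68, adjusted p = 0.0407) and with array medians as the scale (0.68, adjusted p = 0.0303). Of the Tudor genes not tested, Tdrd9, a helicase that acts with the nuclear PIWI protein, had 1.95%, 3.59% and 1.16% in ESC and 2.06%, 3.12% and 9.85% in soma. Only ESC 2, soma 2 and soma 3 were well above background. Tdrd1, a binding partner of Piwil2, ran from 0.721% to 0.993% in ESC and from 0.636% to 0.987% in soma. Tdrd6, a granule protein of later spermatogenesis, ran from 0.741% to 1.017% in ESC and from 0.658% to 1.03% in soma. Both lay at background throughout and have no fold.

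All 4 genes of meiotic entry and cohesin were at least 2-fold higher in ESC, where 24.2% of all genes tested were. Rec8, the cleavable meiotic cohesin subunit, had 171%, 180% and 208% in ESC, against 24.1%, 24.1% and 28.6% in soma (7.28-fold, 2.86 ± 0.11, adjusted p = 2.14e-06). Smc1b, the meiotic SMC subunit, had 231%, 205% and 191% in ESC, against 16.3%, 31.7% and 30.6% in soma (8.31-fold, 3.05 ± 0.27, adjusted p = 8.54e-05). Stag3, the meiotic subunit that binds the cohesin ring, had 284%, 254% and 251% in ESC, against 47.0%, 66.3% and 67.6% in soma (4.41-fold, 2.14 ± 0.16, adjusted p = 3.25e-05). For these 3 cohesin genes the lowest ESC array was several times the highest soma array. Stra8, the retinoic acid target that starts the meiotic programme, had 29.7%, 32.8% and 34.9% in ESC, against 2.57%, 3.99% and 14.1% in soma. Soma 1 was not well above background and soma 3 stood apart from the other 2 soma arrays. The Stra8 difference was 2.63 ± 0.62 (adjusted p = 0.00777), and it was 1.20 against soma 3 alone.

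The cohesin subunits of dividing cells were compared as a list of their own, with the mismatch repair and strand exchange genes of the same families. Of 12 measured, 8 were higher in ESC, 2 in soma, and 2 did not pass, with a median difference of 0.35. All 12 were well above background on all 6 arrays, and of all genes so detected 49.1% were higher in ESC and 34.8% in soma, with a median of 0.21. Among those higher in ESC were Msh6 (2.31 ± 0.07) and Pms2 (0.86 ± 0.05), which act in the repair of mismatches in replicated DNA. Smc3, the SMC subunit of every cohesin, had a difference of 0.66 ± 0.06. Rad21, the mitotic counterpart of Rec8, had 0.17 ± 0.06, and Smc1a, the counterpart of Smc1b, had 0.07 ± 0.05 and did not pass (adjusted p = 0.219). Stag2 and Stag1, the counterparts of Stag3, were higher in soma (-1.005 ± 0.05 and -0.33 ± 0.09). Whether these differences differ from those of the meiotic subunits was not tested.

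Of the 8 genes of the chromosome axis and synaptonemal complex, 5 were higher in ESC, beside 46.6% of all genes tested. Sycp3, a structural protein of the axis, had the largest difference of the whole list in ESC, with 666%, 629% and 614% in ESC against 9.29%, 14.5% and 25.6% in soma. All 3 ESC arrays lay within 1.09-fold of each other and far above the soma arrays (42.1-fold, 5.40 ± 0.36, adjusted p = 2.17e-05). Syce1, of the central element that links the paired axes, had 285%, 227% and 235% in ESC, against 14.9%, 21.6% and 29.8% in soma (11.7-fold, 3.55 ± 0.26, adjusted p = 3.42e-05). Syce2, of the same element, had 1318%, 1257% and 1265% in ESC, against 397%, 404% and 433% in soma (3.11-fold, 1.64 ± 0.06, adjusted p = 1.47e-06). It was the member with the narrowest range on the soma arrays among those detected on all of them. Hormad1, which marks unpaired axes, had 77.9%, 58.4% and 47.7% in ESC, against 1.94%, 3.20% and 5.07% in soma, of which soma 1 was not well above background (19.0-fold, 4.25 ± 0.38, adjusted p = 8.49e-05). Its other probe, not well above background on any soma array, gave 3.36. Hormad2, its relative, had 9.91%, 11.4% and 12.0% in ESC, against 2.36%, 2.30% and 5.95% in soma, with only soma 3 well above background (1.80 ± 0.38, adjusted p = 0.00521). Against soma 3 alone the Hormad2 difference was 0.89.

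The promoters of Sycp3 and Hormad1, the largest and the third largest differences in ESC, both hold 2 E-boxes and 1 E2F motif, which the capitals mark (CACGTG for the E-box, GCGGGA for the E2F motif TCCCGC read on the other strand). The 250 bases before the start lie at chr10:88459337-88459586 on the plus strand for Sycp3 and at chr3:95559427-95559676 on the plus strand for the first start of Hormad1.
Sycp3: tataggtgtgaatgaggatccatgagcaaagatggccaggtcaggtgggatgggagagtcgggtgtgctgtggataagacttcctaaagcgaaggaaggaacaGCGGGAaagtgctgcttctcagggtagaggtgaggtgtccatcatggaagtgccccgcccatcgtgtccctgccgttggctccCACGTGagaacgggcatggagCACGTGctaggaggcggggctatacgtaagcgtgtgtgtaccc
Hormad1: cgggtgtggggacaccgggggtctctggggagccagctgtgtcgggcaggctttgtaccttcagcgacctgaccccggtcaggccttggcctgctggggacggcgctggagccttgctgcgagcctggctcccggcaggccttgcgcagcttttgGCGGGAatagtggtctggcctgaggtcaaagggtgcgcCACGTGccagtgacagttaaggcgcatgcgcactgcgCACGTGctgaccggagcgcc

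Sycp1, the filament that spans the synaptonemal complex, did not follow the others. It had 16.0%, 15.4% and 12.3% in ESC and 9.81%, 14.7% and 17.4% in soma, with overlap (0.09 ± 0.23, adjusted p = 0.719). The remaining 2 genes of the complex were not tested. Sycp2, an axis protein, was at 1.44%, 2.70% and 2.20% in ESC, where only ESC 2 was well above background, and at 0.703%, 9.28% and 0.5997% in soma, where only soma 2 was. Tex12, of the central element, had 2.79%, 2.98% and 2.75% in ESC and 2.72%, 4.87% and 9.26% in soma, with ESC 2, soma 2 and soma 3 well above background.

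Of the 7 genes of meiotic recombination, 4 were higher in ESC and 2 in soma, beside 46.6% and 38.3% of all genes tested. Spo11 was not tested. Dmc1, the meiotic strand exchange protein, had 19.9%, 18.8% and 17.0% in ESC, against 3.81%, 3.42% and 5.42% in soma (4.47-fold, 2.16 ± 0.18, adjusted p = 6.4e-05). Its other 2 probes gave 1.68 and 2.13. Msh4, which with Msh5 stabilises crossover intermediates, had 5.82%, 4.68% and 4.20% in ESC, against 0.778%, 0.520% and 0.676% in soma. No soma array was well above background, and Msh4 was at least 1.88-fold higher in ESC (adjusted p = 1.95e-05), while its other probe was at background on all 6 arrays. Msh5 went the other way, with 8.10%, 8.32% and 7.81% in ESC against 15.5%, 18.1% and 17.3% in soma (2.09-fold higher in soma, -1.07 ± 0.07, adjusted p = 2.52e-05). Both groups of Msh5 values were tight and did not overlap.

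Tex11, an X-linked crossover factor, had 41.6%, 32.7% and 34.2% in ESC, against 7.83%, 11.7% and 15.7% in soma (1.67 ± 0.26, adjusted p = 0.00122). Its other probe, too dim to be kept, had 1.68%, 9.82% and 3.95% in ESC and was not well above background on any soma array. Mei1, needed for meiotic DNA breaks, had 7.74%, 7.80% and 6.92% in ESC, against 2.49%, 1.62% and 3.42% in soma, with only soma 3 well above background (1.64 ± 0.27, adjusted p = 0.00153). Tex15, which acts in transposon silencing and in break repair, had 10.75%, 11.1% and 10.9% in ESC and 12.5%, 14.6% and 19.5% in soma. The Tex15 groups did not overlap, but the difference was small and just passed (-0.48 ± 0.16, adjusted p = 0.0316). It was lost under 9 of 23 other settings, among them leaving out any 1 ESC array (adjusted p = 0.0831, 0.0693 and 0.0745 without ESC 1, 2 and 3) or soma 2 (adjusted p = 0.0596). Spo11, the enzyme that makes the breaks, was not well above background in ESC (0.725%, 0.527% and 0.658%) and had 9.25%, 0.464% and 2.70% in soma, with only soma 1 well above background.

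Of the 5 other germ line genes, 4 were higher in ESC, beside 46.6% of all genes tested. Tex19.1, a mammalian gene of germ cells and placenta that holds down retrotransposons, had 1886%, 1322% and 1408% in ESC, against 144%, 199.7% and 296% in soma (7.44-fold, 2.90 ± 0.29, adjusted p = 0.000139). Tex14, which keeps the bridges between germ cells open, had 229%, 195% and 208% in ESC, against 37.0%, 54.3% and 70.1% in soma (4.04-fold, 2.01 ± 0.23, adjusted p = 0.000302). Both genes were several times brighter on the lowest ESC array than on soma 1, and less so against soma 3. Dmrtb1, a transcription factor of spermatogonia leaving mitosis, had 5.79%, 5.15% and 5.16% in ESC, against 1.21%, 1.58% and 1.48% in soma. None of the soma arrays was well above background, and Dmrtb1 was at least 2.07-fold higher in ESC (adjusted p = 1.31e-05). Taf7l, an X-linked germ line relative of a general transcription factor, had 319%, 401% and 290% in ESC and 219%, 234% and 210% in soma (0.59 ± 0.13, adjusted p = 0.00562). That difference was 0.35 and did not pass under scaling to the spike-in probes (adjusted p = 0.105).

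Brdt, a bromodomain protein of spermatocytes and spermatids, was measured by 2 probes that gave different results. The brighter one had 20.9%, 16.7% and 18.9% in ESC and 16.2%, 18.7% and 25.5% in soma, and it did not pass (-0.08 ± 0.18, adjusted p = 0.71). The other one, made to another transcript, had 0.757%, 0.903% and 7.69% in ESC, where only ESC 3 was well above background, and 11.1%, 13.3% and 15.0% in soma (-2.90, adjusted p = 0.0236 over probes). With the mean of its 2 probes Brdt was higher in soma (-1.49, adjusted p = 0.0251). Against soma 3 alone, on the shared slide, the difference of the brighter probe was -0.45.

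Many members varied widely over the soma arrays. Of the 27 members well above background on all 3 soma arrays, 13 spanned at least 2-fold there, a log2 range of 1 or more. Among 18248 genes under the same filter 1.67% did, and 2.14% did among the 13755 of them whose mean soma level lay between those of the dimmest and the brightest of the 27. The 13 are Ddx4, Dazl, Nanos2, Piwil2, Mael, Mov10l1, Gtsf1, Fkbp6, Tdrd5, Sycp3, Syce1, Tex11 and Tex19.1. On the ESC arrays none of the 27 spanned 2-fold, against 4.39% of the 18248. The filter is on the soma arrays only, and 16072 genes were well above background on all 6 arrays. The ESC ranges of the 18248, here and below, thus include genes not detected throughout ESC. The median range was 0.32 on the ESC arrays and 0.96 on the soma arrays for the 27, against 0.16 and 0.15 for the 18248 genes. The soma range was wider than the ESC range for 23 of the 27 (85.2%), against 43.5% of all genes. The question of spread came with the list, from earlier results of these arrays, so these counts describe the 3 soma samples and carry no test.

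**Figure D3:**
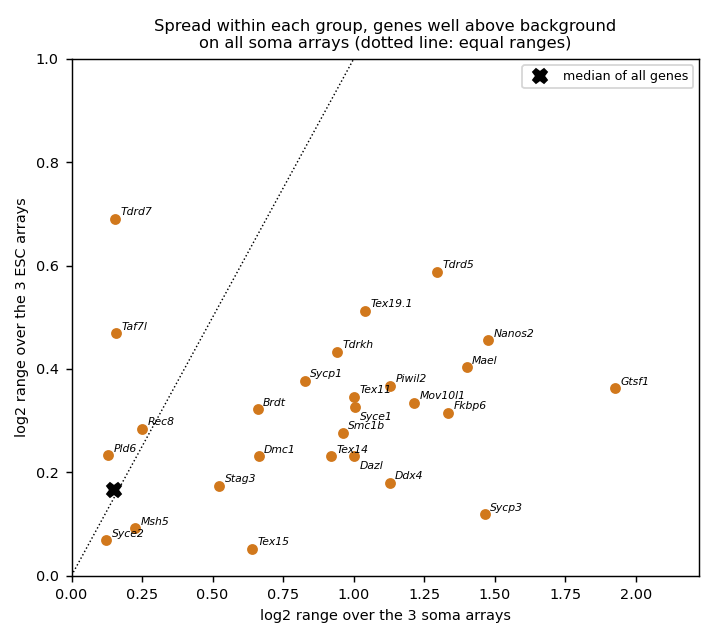
The log2 range over the 3 ESC arrays (vertical) against the log2 range over the 3 soma arrays (horizontal) for the 27 genes well above background on all soma arrays. The dotted line marks equal ranges and the cross the median of all genes under the same filter, at 0.16 for ESC and 0.15 for soma. The axes have different scales, 23 of the 27 points lie on the soma side of the line, and the ESC values of Nanos2 are at background.

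Soma 3 was the high array for nearly all of these 27 genes. Soma 3 was the highest soma array for 24 of the 27 and soma 1 the lowest for 24 of the 27 (88.9% each), where over all genes the shares were 44.7% and 30.1%. Both held together for 22 of the 27 (81.5%), against 18.9% of all genes. The median deviations from the gene's soma mean were -0.51, 0.05 and 0.43 on soma 1, 2 and 3, against -0.01, -0.01 and 0.01 over all genes. Soma 2 was above soma 1 for 25 of the 27 (92.6%, against 49.1% of all genes), with a median step of 0.55 on the log2 scale, and those arrays shared a slide and a scan. The span was 3.80-fold for Gtsf1, 2.78-fold for Nanos2, 2.76-fold for Sycp3, 2.64-fold for Mael and 2.19-fold for Ddx4. In each of these 5 soma 3 was the highest soma array and soma 1 the lowest.

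Some members were nearly level over the soma arrays. Syce2, Pld6, Tdrd7, Taf7l, Msh5 and Rec8 had log2 ranges between 0.12 and 0.25. Tdrd7 and Msh5 were also higher in soma, so 2 of the 5 genes called higher in soma were level there and Dazl, Nanos2 and Tex15 were not. The 3 genes with soma 2 as the highest array were Smc1b, Msh5 and Taf7l. Among members dimmer than the filter, Tdrd12 and Stra8 had soma 3 as the highest array and soma 1 not well above background, so that no span is given for them. Spo11 and Sycp2 were each well above background on a single soma array, soma 1 for Spo11 and soma 2 for Sycp2.

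**Figure D4:**
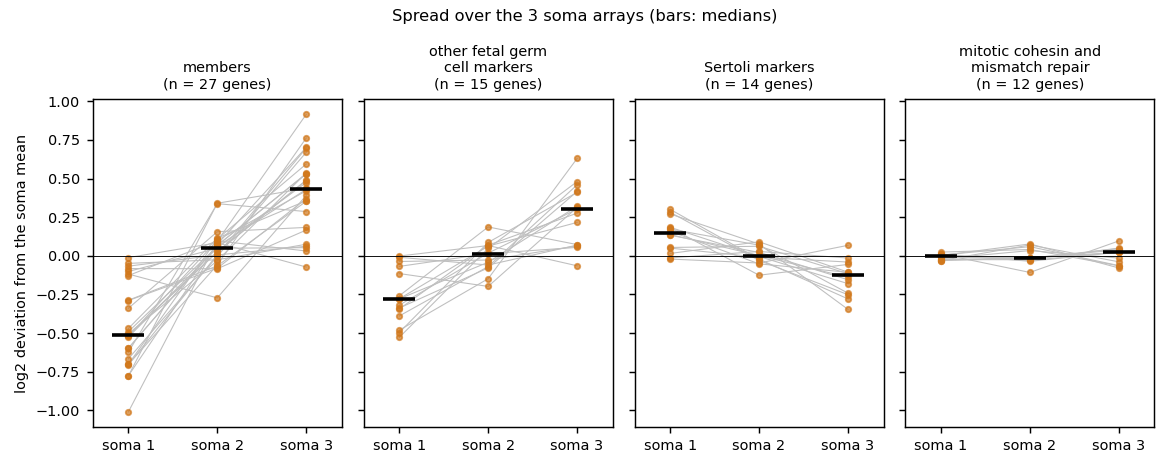
Log2 deviation of each gene from its own soma mean on soma 1, 2 and 3, for 4 lists of genes well above background on all soma arrays: the 27 meiosis and piRNA genes, 15 other fetal germ cell markers, 14 Sertoli markers and 12 mitotic cohesin and mismatch repair genes. Lines join the values of 1 gene, bars are medians, and the samples are replicates with no order. The medians on soma 1 and soma 3 are -0.51 and 0.43 in the first list, -0.28 and 0.30 in the second, 0.15 and -0.13 in the third, and within 0.03 of 0 in the last.

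Most germ cell markers moved with this spread. All 17 fetal germ cell markers outside the list had a probe, and 15 were well above background on all soma arrays, with soma 3 highest for 13 and soma 1 lowest for 12. Their summed relative signal was 31040% to 32875% over the ESC arrays and 1669%, 1892% and 2311% on soma 1, 2 and 3. Such sums, here and below, are led by the brightest probes, so they only compare arrays within a list. In this one Dppa5a had 16202% to 16712% in ESC, and Mov10 had 566% to 619% in soma. Dppa3, a marker of primordial germ cells and stem cells, had 213%, 184% and 206% in ESC and 143%, 213% and 287% in soma. Pou5f1, the pluripotency factor that fetal germ cells keep, had 2678%, 2433% and 2438% in ESC and 28.6%, 36.0% and 61.8% in soma. These 2 were the only ones of the 15 that spanned at least 2-fold over the soma arrays. Mov10 (1.09-fold), Prdm1 (1.09-fold) and Rhox9 (1.07-fold) were nearly level there. Kit had soma 3 as its lowest soma array, and Tfap2c had soma 2 as its highest. Rhox6 was the 1 marker not well above background on any soma array, and Dnmt3l was detected on soma 2 and 3 only. Of the 17, 15 were higher in ESC, led by Dnmt3l, Tfap2c and Rhox6, and Nanos3 and Dppa3 did not pass. Sertoli markers ran the other way, with soma 1 highest for 10 of 14 and a summed signal of 11503%, 10645% and 9537% on soma 1, 2 and 3. The summed signal of fetal Leydig markers was 8015%, 7930% and 7891%. Soma 3 was also the highest soma array for all 8 interstitial markers, summed to 1198% to 1358% over the ESC arrays and 26017%, 24882% and 28828% on soma 1, 2 and 3. The same held for the 6 macrophage markers detected, with 63.5% to 94.1% in ESC and 655%, 638% and 681% in soma over the list, and for 2 of 6 erythroid, 2 of 6 endothelial and 1 of 5 Leydig markers. The median range over the soma arrays was 0.18 for the interstitial and 0.11 for the macrophage markers, beside 0.60 for the germ cell markers. The part of germ cells left in the soma samples, or of other cell types, in these values was not tested. Pluripotency markers, several of them on the germ cell list too, had soma 3 highest for 9 of 12.

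Genes of the same pathways outside the list gave a further view. Of 54 other piRNA and meiosis genes, 47 had a probe and 38 were tested, of which 28 were higher in ESC, 4 in soma, and 6 did not pass. Over all genes tested 46.6% were higher in ESC and 38.3% in soma. Among the 27 well above background on all 6 arrays 18 were higher in ESC and 3 were higher in soma, beside the 49.1% and 34.8% of all genes. Of the 13 other piRNA pathway genes tested, 11 were higher in ESC, beside the 46.6% of all genes tested. Stk31 did not pass and Tdrd3 was higher in soma (-1.35 ± 0.06). The 11 include Hsp90aa1, Ddx39b, Mov10 and Ago2, each well above background on all 6 arrays. Dnmt3l, the partner of DNA methyltransferases in transposon methylation, had 3406%, 2493% and 2716% in ESC, against 3.04%, 4.63% and 4.78% in soma (9.45 ± 0.21, adjusted p = 4.44e-07). Morc1, a transposon repressor of male germ cells, had 545%, 436% and 466% in ESC, against 3.48%, 6.67% and 10.4% in soma (6.27 ± 0.39, adjusted p = 1.66e-05), and Ctcfl, the germ line relative of the insulator protein CTCF, was at least 5.01-fold higher in ESC. For Dnmt3l and Morc1 soma 2 and 3 were well above background and soma 1 was not.

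Of the 25 other meiosis genes tested, 17 were higher in ESC and 3 in soma, beside 46.6% and 38.3% of all genes tested, and 5 did not pass. Meioc, which prolongs the meiotic prophase, had 50.6%, 45.4% and 44.7% in ESC, against 1.33%, 1.45% and 2.50% in soma, none well above background, and was at least 18.1-fold higher in ESC. Rec114, a factor of break formation, had a difference of 4.04 ± 0.38. Ccnb1ip1, the crossover protein HEI10, had 57.2%, 51.2% and 50.4% in ESC, against 8.19%, 1.45% and 1.08% in soma (4.50 ± 0.76, adjusted p = 0.00182), so here soma 1 was the high array. The 3 genes higher in soma were Rad51ap2 (at least 3.92-fold), Hspa2 (-1.01 ± 0.06) and Zcwpw1 (-0.29 ± 0.08). Prdm9, which places the meiotic breaks, had 6.07%, 7.96% and 7.57% in ESC and 9.06%, 11.02% and 6.12% in soma and did not pass (adjusted p = 0.357).

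The spread over the soma arrays differed between these lists. Soma 3 was the highest soma array for all 9 other piRNA genes detected on all soma arrays and for 10 of 19 other meiosis genes. Their median ranges were 0.27 and 0.16, beside 0.96 for the 27 members. The 12 mitotic counterparts had a median range of 0.08 and none reached 2-fold.

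Repressor proteins, many of them known to act on germ line genes in stem cells or somatic tissue, were measured beside them. All 24 were well above background on all 6 arrays, with 17 higher in ESC, 6 in soma, and Atf7ip not passing, beside 49.1% and 34.8% of all genes under that filter. Zfp42 (8.54 ± 0.20), the DNA methyltransferase Dnmt3b (4.59 ± 0.09) and L3mbtl2, a subunit of a variant Polycomb complex (3.24 ± 0.08), had the largest differences in ESC. The other subunits of that complex on the list went both ways. Pcgf6 (2.71 ± 0.08), Tfdp1 (1.11 ± 0.06), Mga (0.91 ± 0.05), Max (0.72 ± 0.06), Rybp (0.63 ± 0.06) and Cbx3 (0.41 ± 0.06) were higher in ESC, and Yaf2 (-1.43 ± 0.12), Ring1 (-0.94 ± 0.06), E2f6 (-0.89 ± 0.05) and Rnf2 (-0.16 ± 0.06) were higher in soma. The DNA methyltransferase Dnmt3a (-3.27 ± 0.05) had the largest difference in soma on this list. The E-box is known as a binding site of the Mga and Max pair, and the E2F motif TCCCGC as one of E2f6.

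Those motifs were searched in the promoter windows of RefSeq, 250 bases before to 50 after each annotated start, on both strands. The E-box CACGTG reads the same on both strands and shares no full match with TCCCGC. Windows were found for 37 of the 42 genes, and none for Piwil2, Tdrd6, Tex11, Tex15 and Spo11. An E-box was in 15 of the 37 genes (40.5%), against 8.09% of 27025 genes with a window, and an E2F motif in 15 (40.5%), against 22.0%. Both were in 8 of the 37 genes (21.6%, against 2.32%) and either was in 22 (59.5%, against 27.5%). The windows of the list were richer in CpG, with a median ratio of observed to predicted CpG of 0.702 against 0.384. Among windows with a ratio of at least 0.6, an E-box was in 14 of 25 genes of the list (56.0%), against 11.9% of all genes, and an E2F motif in 52.0%, against 44.9%.

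**Figure D5:**
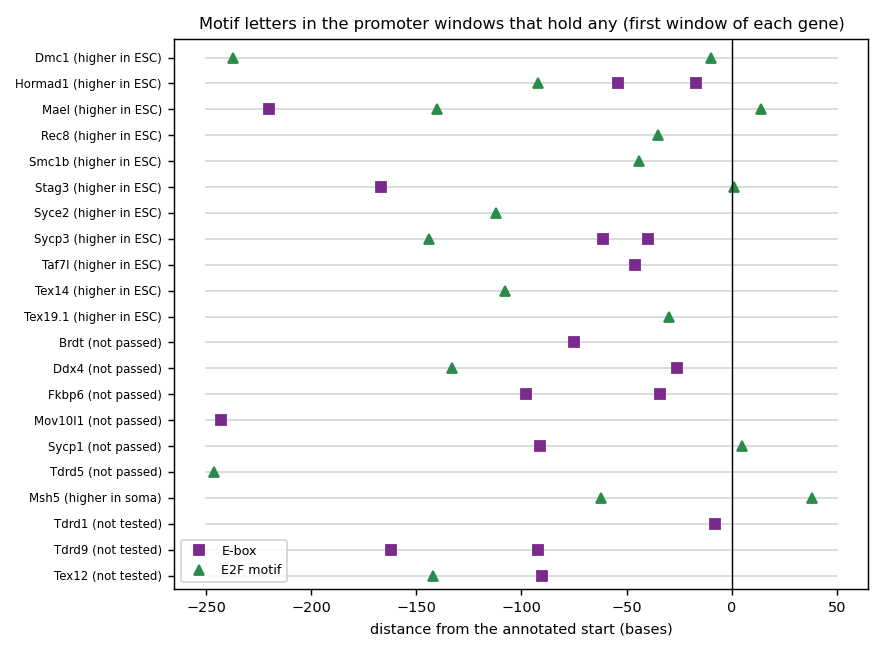
Distance from the annotated start, in bases, of each E-box (purple squares) and E2F motif (green triangles) in the first promoter window of the genes that hold any, with the call of the gene beside its name. Genes higher in ESC stand at the top, then genes that did not pass, Msh5 as the only gene higher in soma with a motif, and genes not tested. E-boxes occur in each group except that of Msh5.

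The motifs occurred both in genes higher in ESC and in genes that were not, and whether they follow the difference was not tested. Of the 20 genes with a window that were called higher in ESC, 7 held an E-box and 10 an E2F motif. Of the other 17, 8 held an E-box and 5 an E2F motif. These 17 pool several calls, and Asz1, Sycp2, Tdrd1, Tdrd9, Tex12 and Piwil4 among them have no tested difference. Of the genes higher in soma, Dazl, Nanos2, Tdrd7 and Msh5 had a window, with no E-box and with an E2F motif in Msh5 alone. Brdt, Ddx4, Fkbp6, Mov10l1 and Sycp1, which did not pass, held an E-box, and Tdrd5 and Tdrkh did not. Sycp3 and Hormad1 hold 2 E-boxes each, as shown above, and so do Fkbp6, which did not pass, and Tdrd9, which was not tested. The Tdrd12, Nanos2 and Dazl sequences have no match. These matches are letters in a window: whether a protein binds them in either cell type was not measured here.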

How the data were processed

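Per the labels' protocols, a low input kit put Cy3 on the RNA, which was hybridised to Agilent mouse 4 x 44 K arrays. Per the file headers, the deposited processed signal is an intensity from Feature Extraction 10.7.3.1, background-subtracted and detrended within the array, on a grid of build mm9. The authors' deposited matrix has log2 values of unstated scale: 100% of 39414 probes lay within 0.01 of the scanner values after scaling to the 75th percentile and centring each probe on its median, with column medians of 0.161, -0.0879 and 0.0634 (ESC 1 to 3) and 0.055, -0.25 and -0.0654 (soma 1 to 3). It served as an alternative.

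Control spots (1377) and spots marked as outliers were left out, spots of 1 probe were averaged, and log2 signals were scaled by subtracting each array's 75th percentile. A probe was kept when well above background on all arrays of at least 1 group (24150 of 39429 gene probes), and each gene took its brightest kept probe. Symbols came from a RefSeq gene table of GRCm38.p6 and named 66.1% of gene probes. ESC minus soma was tested with limma 3.58.1 in R 4.3.3 (lmFit and eBayes, two-sided, Benjamini-Hochberg over 19670 genes). The pipeline was first tested on simulated data. With 3 arrays a group, an exact permutation test of a single value cannot go below 0.1, and none is given. Precision is limited by the number of arrays.

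The members and all gene lists were chosen with earlier results of these arrays known. Every member is accounted for by name, and from each other list the 3 largest passing differences in each direction are named, apart from some that are not reported here. Rad21, Smc1a, Smc3, Pcgf6, Mga, Max, E2f6, Rybp, Cbx3, Tfdp1, Rnf2, Atf7ip, Prdm9, Stk31, Dppa3, Nanos3 and Pou5f1 were named after their values were seen. Kit, Prdm1, Rhox9, Mov10, Dppa5a, Hsp90aa1, Ddx39b and Ago2 also fall outside the rule of the 3 largest differences and were named with their values known. Promoters are those of the 3 largest called differences in ESC and the 2 largest in soma. The replicate numbers were checked as pairs: the correlations of deviations between same-numbered ESC and soma arrays were -0.05, 0.07 and 0.03, so they share only a number. Alternatives covered scaling, background correction, probe filters, probes per gene, the series matrix, the variance model, a test against a log2 difference of 1, slide, scan and replicate number as blocks, and each array left out.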

Additional observations from a re-analysis of the deposited data

How the results depend on the processing

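Across 23 alternative settings none of the 27 called members changed direction. Against a log2 difference of 1, 7592 of all genes passed, with 14 members higher in ESC and 3 higher in soma, and 2 of the other piRNA and meiosis genes higher in soma. Within the slide that holds both groups, where soma 3 stands alone and is assumed to vary like the ESC arrays, 8 members were higher in soma. That assumption does not hold for members such as Ddx4, whose log2 range was 0.18 in ESC and 1.13 in soma, so the count is no test of them. With genes detected on all 6 arrays only, 18 other piRNA and meiosis genes were higher in ESC, which follows from fewer genes being tested. Leaving out each array gave 21 to 24 members higher in ESC and 4 to 7 higher in soma. Genes that did not pass also changed sign, and the cause was not tested. Under spike-in scaling Ddx4 was -0.11, Sycp1 -0.15 and Tdrd5 -0.23, and in both slide settings (fixed block, shared slide) Ddx4 was -0.40, Fkbp6 -0.28, Sycp1 -0.26 and Tdrd5 -0.58. Tdrd5 was also -0.0087 with normexp, -0.043 with the mean of its probes and -0.034 with the slide as a random block. Brdt was 0.074 under quantile normalization, 0.12 under median scaling and 0.019 with normexp. Leaving out each array gave -0.17 to 0.40 for Ddx4, -0.34 to 0.31 for Tdrd5, -0.14 to 0.27 for Sycp1 and -0.22 to 0.11 for Brdt. With the replicate block 16476 genes were called and no member's call changed. Quantile, median and spike-in scaling moved the median of all genes by -0.12, 0.20 and -0.24. Differences of dim genes depend on background correction: with normexp Nanos2 was -3.02, Msh5 -0.50, Msh4 0.91 and Dmrtb1 0.76. Low signal on the soma arrays limits what can be said of the 14 members not detected on all of them.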
